A study of Rattus norvegicus with 12 samples.

Results

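The circular RNAs of rat orbitofrontal cortex described here are circAdcy5 (rno_circRNA_003235, array probe ASCRPR003702) and circPrex2 (rno_circRNA_012514, array probe ASCRPR004172). They are 2 of the 14145 circRNAs on the array, of which 13979 were tested, and 2 of the 75 circRNAs held here from the study's list. Both were chosen by measured values, as circRNAs higher after heroin than after saline self-administration whose host genes act in G-protein signalling. The comparison of heroin with saline is therefore a description, and no count or value from it is read as a test.

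A circRNA is a closed loop made when the end of an exon is joined back to the start of the same or an earlier exon. It has no free ends, so the exonuclease RNase R, which digests linear RNA, leaves it largely intact. Adcy5 encodes adenylyl cyclase 5, which makes the second messenger cAMP when stimulatory G proteins bind it and makes less when inhibitory G proteins do. Opioid receptors couple to those inhibitory G proteins, and the enzyme is best known from the striatum. Prex2 encodes P-Rex2, an exchange factor that loads the small GTPase Rac with GTP and is activated by the G-protein beta-gamma dimer together with the lipid PIP3. The array reads the circular transcript and not the enzyme or the linear mRNA of either gene. The orbitofrontal cortex is a frontal region involved in assigning value to rewards and to the cues that predict them.

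All 12 rats were adult male Sprague Dawley, aged 8 weeks on arrival, with 3 in each of 4 groups. The heroin and saline groups had a jugular catheter and self-administered their solution for 6 h a day in 10 daily sessions. The sucrose group worked for chocolate sucrose pellets for 2 h a day in 10 sessions without surgery, and the naive group, also without surgery, was handled and spent 2 h a day in the chamber for 10 sessions with no programme running. Brains were taken straight after the last session. Heroin, surgery and session length therefore differ together between the heroin and sucrose groups. Surgery, session length and self-administration differ between saline and naive. In its account of the catheter surgery, the paper also describes single housing and food restriction. RNA of each dissected cortex was digested with RNase R and hybridised to 1 array per rat. No probe used here is paired with a cell type or region marker, so the tissue label was not checked against such genes, and in dissected tissue fewer cells of a type and less RNA per cell cannot be told apart.

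The headers give 2 scan times. The first holds the 3 heroin, the 3 saline and 2 sucrose arrays, and the second holds sucrose 3 and the 3 naive arrays. The scanner marked 95.7% to 98.6% of circRNA spots on an array as well above background. The median background-subtracted intensity over circRNA probes lay between 70.1 and 141 scanner units per array. It was 124 to 141 on the sucrose arrays and 70.1 to 114 on the naive arrays, and the share of spots well above background was 98.2% to 98.5% and 95.7% to 97.8%, so neither measure overlapped between these groups before normalization. RNase R should deplete linear transcripts, for which 23 probes were well above background on every array. The median log2 signal of these probes minus that of the circRNA probes was -1.03 to -1.02 on the heroin arrays, -1.01 to -0.75 on the saline arrays, -1.31 to -1.09 on the sucrose arrays and -1.24 to -0.91 on the naive arrays. The heroin and saline ranges of this measure did not overlap but nearly met, with heroin 3 at -1.016 and saline 1 at -1.012. Saline 2 was at -0.993, and saline 3, at -0.753, lay furthest from the heroin arrays. The part of these measures in the results was not tested.

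Both circRNAs are listed as exonic and on the minus strand. The study's list places circAdcy5 at chr11:71814363-71816772, a span of 2409 bp, with the host transcript NM_022600. It places circPrex2 at chr5:12598300-12601465, a span of 3165 bp, with the host transcript NM_001107899. The genome build behind these positions, and whether they count from 0 or 1, are not stated by any source used here. The probes, 60 bases each, are shown because each value below comes from a single probe laid across a backsplice junction, and the junction base itself is not marked in the list.
circAdcy5 probe: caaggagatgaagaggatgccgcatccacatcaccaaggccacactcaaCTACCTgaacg
circPrex2 probe: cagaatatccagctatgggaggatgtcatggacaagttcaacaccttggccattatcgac
The capitals in the circAdcy5 probe mark CTACCT, the reverse complement of bases 3 to 8 of the let-7 miRNAs shown next. GC content was 53.3% in the circAdcy5 probe, 11th highest of the 75 listed probes, and 46.7% in the circPrex2 probe, against a median of 45.0% and a range of 28.3% to 61.7%. The longest run of bases that the circAdcy5 probe shares with another listed probe was 9, with a Grin2b probe. For the circPrex2 probe it was 8, with a March1 probe.

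The study's list names 5 miRNAs with predicted sites for each circRNA. All 10 were matched by name in the RefSeq miRNA table (assembly GRCr8). Their mature sequences are shown so that the seeds, bases 2 to 8 in capitals, can be compared within and between the 2 circRNAs. For circAdcy5, all 5 are let-7 family members with the same seed.
let-7i-5p: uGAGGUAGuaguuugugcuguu
let-7b-5p: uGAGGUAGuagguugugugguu
let-7f-5p: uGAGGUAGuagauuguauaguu
let-7c-5p: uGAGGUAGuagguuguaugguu
let-7a-5p: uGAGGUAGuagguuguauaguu
For circPrex2, 3 of the 5 share a seed and the other two each have their own.
miR-92a-3p: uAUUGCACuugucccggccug
miR-25-3p: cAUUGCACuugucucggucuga
miR-92b-3p: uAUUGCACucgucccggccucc
miR-138-5p: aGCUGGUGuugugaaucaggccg
miR-541-3p: aGUGGCGAacacagaauccauac
Among these listed names, no miRNA and no seed was shared between circAdcy5 and circPrex2. The list stops at 5 miRNAs per circRNA, so it does not show whether further predicted sites are shared. Among the other listed circRNAs, the circRNA of Nfix (rno_circRNA_007790), a transcription factor gene, alone named one of these 10 miRNAs, miR-138-5p.

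The seed complements were searched in the probes on the strand as listed. In the circAdcy5 probe the 7-base word CTACCTC was absent, as was TACCTC, and CTACCT occurred 1 time, at probe position 50 counted from the 5′ end. CTACCT was held by 2 of the 75 listed probes, or 2.67%. The circPrex2 probe held no CACCAGC, the reverse complement of the miR-138-5p seed. It held no GTGCAAT, which pairs with the seed that miR-92a-3p, miR-25-3p and miR-92b-3p share, and no TCGCCAC, which pairs with that of miR-541-3p. The first 6 and the last 6 letters of each of these words were absent too. A probe covers 60 bases, so the search says nothing of the rest of either circle.

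Both probes gave a measured signal on every array. Each was well above background on 12 of 12 arrays, with 0 saturated and 0 outlier spots. The circAdcy5 spot was 6.0 to 20.8 times its local background of 13 to 19 scanner units. The circPrex2 spot was 17.9 to 54.4 times its background of 14 to 18. Each circRNA has 1 spot per array, so spot noise was read from 43 linear probes printed 10 times. In the signal range of the 2 circRNAs, their 84 probe and array pairs had a median SD of 0.06 log2 units between spots and a highest SD of 0.51. The SD between rats within groups was 0.31 for circAdcy5 and 0.33 for circPrex2, above the median spot SD of those probes.

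**Figure D1:**
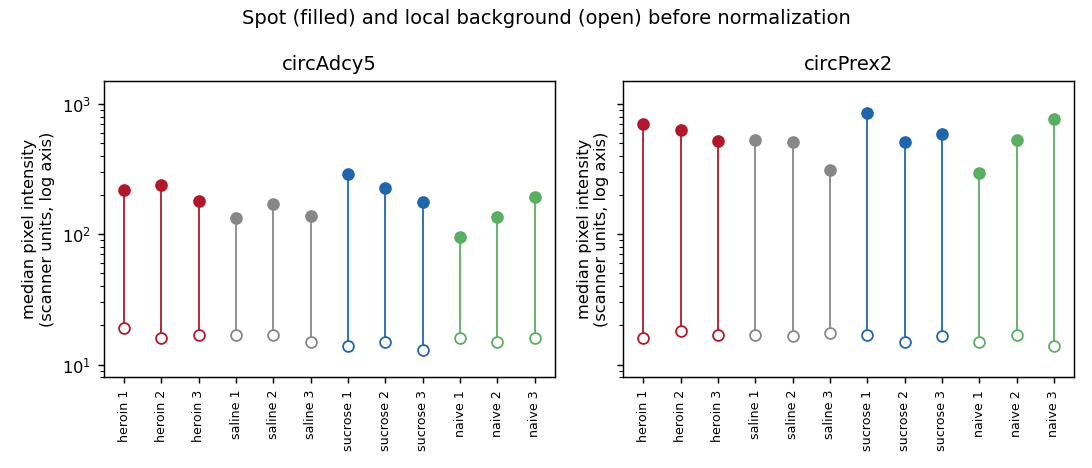
Median pixel intensity of the spot (filled) and of its local background (open) for circAdcy5 and circPrex2 on each of the 12 arrays, in scanner units on a log axis, before normalization. Every spot lies at least 6.0 times above its background, and the lowest ratio is that of circAdcy5 on naive 1.

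On the normalized log2 scale, circAdcy5 measured 7.65, 8.07 and 7.44 in the 3 heroin rats and 6.74, 6.98 and 7.25 in the 3 saline rats. It measured 7.75, 7.38 and 7.15 in the sucrose rats and 6.94, 6.78 and 7.43 in the naive rats. Heroin rat 2 had the highest value and saline rat 1 the lowest. The heroin and saline values did not overlap, while sucrose and naive values overlapped with each other because naive rat 3 lay above sucrose rats 2 and 3. The group means, highest first, were heroin at 7.72 ± 0.32, sucrose at 7.43 ± 0.30, naive at 7.05 ± 0.34 and saline at 6.99 ± 0.26 (SD, 3 rats each). Neighbours in this order differed by 0.29, 0.38 and 0.06, of which the first and last were smaller than the SDs of the groups beside them.

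circPrex2 measured 9.51, 9.63 and 9.01 in the heroin rats and 8.94, 8.67 and 8.55 in the saline rats. It measured 9.40, 8.65 and 9.17 in the sucrose rats and 8.87, 9.01 and 9.57 in the naive rats. Again heroin rat 2 was highest, and here saline rat 3 was lowest. The lowest heroin value lay just above the highest saline value, and sucrose and naive overlapped in part, with sucrose rat 2 below every naive rat and naive rat 3 above every sucrose rat. The group means, highest first, were heroin at 9.38 ± 0.33, naive at 9.15 ± 0.37, sucrose at 9.07 ± 0.38 and saline at 8.72 ± 0.20 (SD, 3 rats each). Each pair of neighbours overlapped in its single values. Both circRNAs thus had heroin first and saline last, an order that their choice favoured, while sucrose and naive changed places.

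**Figure D2:**
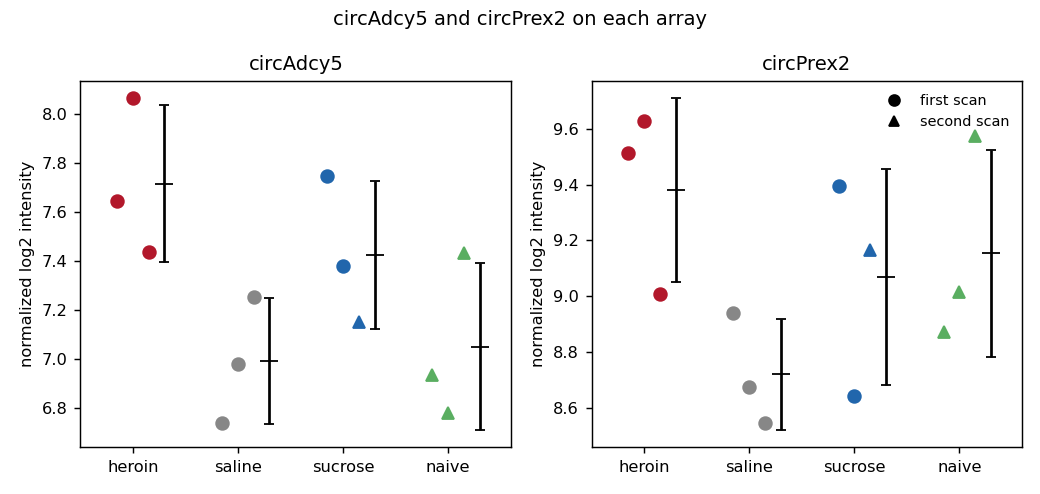
Normalized log2 intensity of circAdcy5 and circPrex2 on each array (points, in replicate order within a group; circles for the first scan, triangles for the second), with the group mean and SD beside them (3 rats each). All heroin points lie above all saline points for both circRNAs, and the naive rats span 6.78 to 7.43 for circAdcy5 and 8.87 to 9.57 for circPrex2.

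The heroin minus saline difference, which chose both circRNAs, was 0.73 ± 0.23 (SE) on the log2 scale for circAdcy5, a fold of 1.65, and 0.66 ± 0.25 for circPrex2, a fold of 1.58. The threshold behind the choice, a fold of 1.5 at an unadjusted p below 0.05 with heroin higher, was met in the limma fit by 2 of the 2 circRNAs and by 1.11% of all circRNAs tested, which restates the choice. Every heroin array lay above every saline array for 2 of 2, as for 8.12% of all circRNAs. Because the choice used these values, nothing is read from either count. In the authors' deposited values, with the methods' t-test, 33 circRNAs were higher past that threshold. Their folds there put circPrex2 at 1.54, the 10th from the threshold, and circAdcy5 at 1.58, the 17th. The circRNA just inside was that of Stk39 at 1.503 and the one just outside was probe ASCRPR006796 at 1.497.

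Before normalization the background-subtracted circAdcy5 intensity was 200, 215 and 167 scanner units in the heroin rats and 112, 158 and 124 in the saline rats. That of circPrex2 was 719, 640 and 499 in the heroin rats and 510, 499 and 306 in the saline rats. On this scale the groups stayed apart for circAdcy5, while for circPrex2 heroin rat 3 lay below saline rat 1. By the array positions in the headers, the 3 heroin arrays and saline 1 shared a row of their scan, and saline 2 and 3 lay in the other row with sucrose 1 and 2. Saline 1 had the lowest circAdcy5 value of the saline arrays but their highest circPrex2 value, so the difference from heroin within that row ran from 0.70 to 1.33 for circAdcy5 and from 0.07 to 0.69 for circPrex2.

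Sucrose against naive is the pair of groups whose arrays the choice did not use. It asks whether a natural reward goes with the level of either circRNA. The sucrose minus naive difference of circAdcy5 was 0.38 on the log2 scale (SE 0.23, 95% interval -0.13 to 0.88), a fold of 1.30 with an interval of 0.913 to 1.84, and did not pass the test (limma adjusted p = 0.544). That of circPrex2 was -0.08 (SE 0.25, 95% interval -0.62 to 0.45), a fold of 0.943 with an interval of 0.652 to 1.36, and did not pass it either (limma adjusted p = 0.913). The exact 2-sided permutation test over the 6 arrays gave p = 0.3 for circAdcy5 and p = 0.8 for circPrex2, where 3 arrays against 3 cannot go below 0.1.

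Read against all circRNAs, 0 of the 2 were past a fold of 1.5 at an unadjusted p below 0.05 with sucrose higher, against 2.74% of those tested, and 0 of the 2 with sucrose lower, against 2.03%. Every sucrose array lay above every naive array for 0 of 2, against 5.14%. At an adjusted p below 0.05, limma called 0 of the 2 and 0% of the circRNAs tested, with 1558 at an unadjusted p below 0.05. The methods' t-test also called 0 after Benjamini-Hochberg adjustment, with 981 at an unadjusted p below 0.05. The median difference over all circRNAs was -0.01. Of all circRNAs, 11.1% had a higher sucrose minus naive difference than circAdcy5, and 60.0% had a higher one than circPrex2.

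Scan time moved with this comparison. Within the second scan, sucrose 3 stood at 7.15 for circAdcy5 against 6.94, 6.78 and 7.43 in the naive rats. With the slide, taken as the arrays of 1 scan time, as a block, the circAdcy5 difference was 0.10 (SE 0.32, limma adjusted p = 0.954) and that of circPrex2 turned to 0.01 (SE 0.36, limma adjusted p = 0.996). Only sucrose 3 shares a scan with the naive arrays, so each blocked difference is that of sucrose 3 alone from the naive mean. Without the block, single rats moved both values. Without naive rat 3 the circAdcy5 difference was 0.57 and without sucrose rat 1 it was 0.21, and the circPrex2 difference turned to 0.13 without naive rat 3 or without sucrose rat 2.

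**Figure D3:**
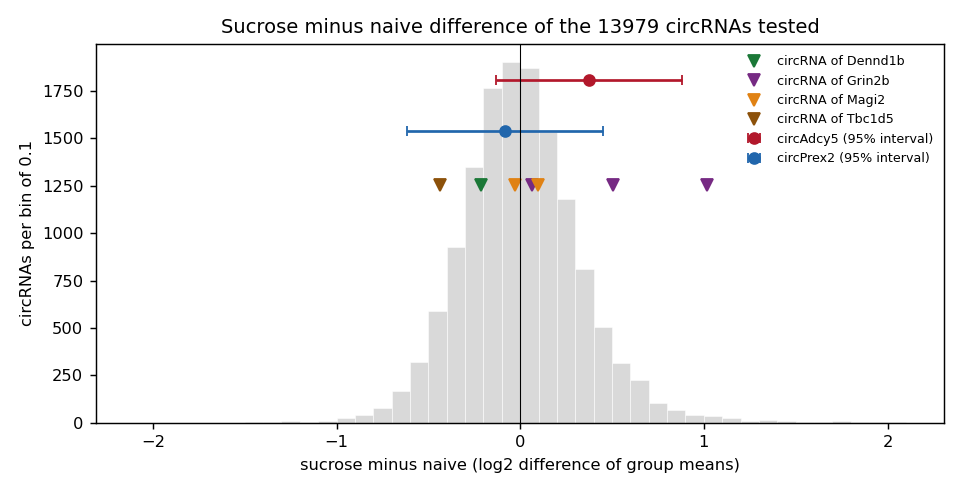
Number of circRNAs in each bin of the sucrose minus naive log2 difference (grey bars, 13979 circRNAs tested), with circAdcy5 and circPrex2 as points with their 95% intervals and the circRNAs of Magi2, Grin2b, Dennd1b and Tbc1d5 as triangles. The heights of points and triangles carry no value. Both intervals include 0, and the highest triangle is the Grin2b circRNA at 1.02.

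**Figure D4:**
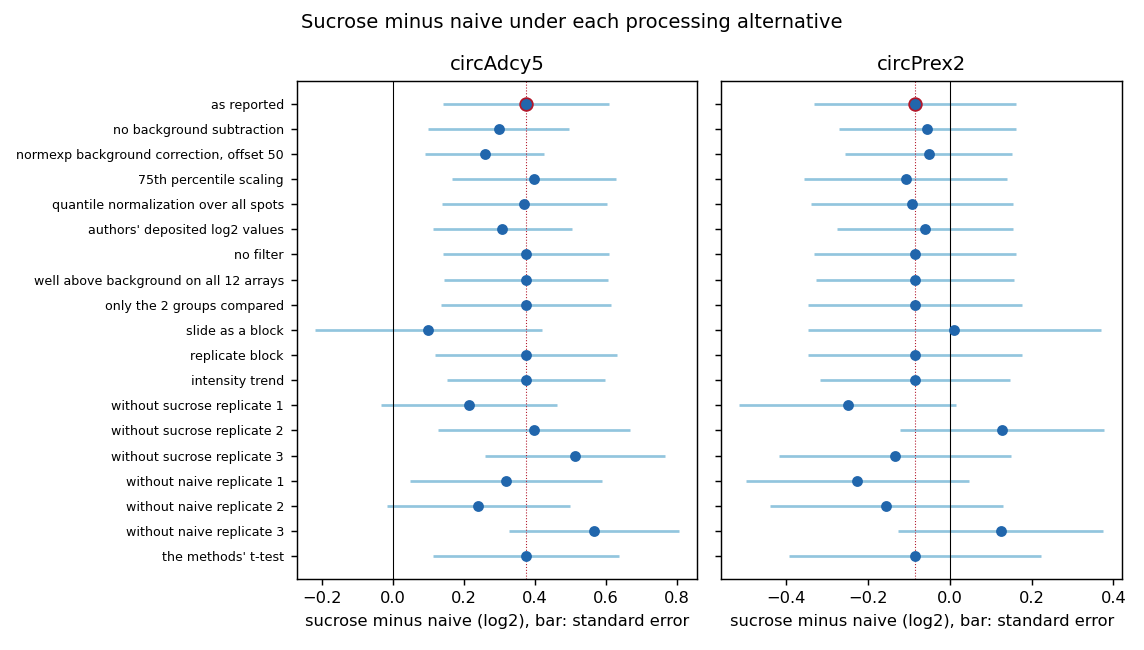
Sucrose minus naive log2 difference (points) with its standard error (bars) for circAdcy5 and circPrex2 as reported (red) and under each processing alternative or with 1 rat left out. circAdcy5 runs from 0.10 to 0.57 and stays above 0, while circPrex2 lies on both sides of 0.

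The saline minus naive difference was -0.06 (SE 0.23) for circAdcy5, with group means of 6.99 and 7.05. For circPrex2 it was -0.43 (SE 0.25), with means of 8.72 and 9.15. Saline arrays also served to choose the circRNAs, and the groups lie on different scans. Scan, surgery, session length and self-administration therefore cannot be told apart, and no test is given. With the slide as a block the circAdcy5 value was -0.47 (SE 0.41), where the scans are joined only through the sucrose arrays. Without the block the circAdcy5 value turned to 0.13 without naive rat 3 and to 0.07 without saline rat 1. The other differences, which share arrays with those above, were 0.67 for circAdcy5 and 0.23 for circPrex2 in heroin minus naive, and 0.44 and 0.35 in sucrose minus saline. For heroin minus sucrose they were 0.29 and 0.31.

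Within the first scan and its second row, sucrose 1 and 2 could be set beside saline 2 and 3. For circAdcy5 the values were 7.75 and 7.38 in sucrose against 6.98 and 7.25 in saline. For circPrex2 they were 9.40 and 8.65 in sucrose against 8.67 and 8.55 in saline. The saline arrays also served to choose both circRNAs, so nothing is read from these 2 rats against 2.

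Over all 12 arrays the 2 circRNAs correlated with each other at r = 0.637, and over the 6 sucrose and naive arrays at r = 0.466. These are descriptions across arrays that share labelling, depth and normalization, and the first includes the groups that chose both circRNAs. Over the 6 arrays, 26.1% of circRNAs had a higher correlation with circAdcy5 than circPrex2 had, and 18.5% had a higher one with circPrex2 than circAdcy5 had. Both circRNAs lay on the same side of their group mean on 8 of 12 arrays. Deviations within a group sum to 0 and other pairs of circRNAs were not counted, so nothing is read from this count. The probes most like circAdcy5 over 12 arrays, out of 13978 compared, were ASCRPR003581 at r = 0.952, ASCRPR007903 at 0.937, ASCRPR013822 at 0.936, ASCRPR008364 at 0.920 and ASCRPR000723 at 0.919. Those most like circPrex2 were ASCRPR006209 at r = 0.958, ASCRPR007758 at 0.951, ASCRPR010068 at 0.931, ASCRPR006833 at 0.919 and ASCRPR013163 at 0.918. Over the 6 sucrose and naive arrays the closest were ASCRPR006649, ASCRPR003956 and ASCRPR007606 for circAdcy5, at r = 0.989 or more, and ASCRPR005160, ASCRPR006253 and ASCRPR003200 for circPrex2, at r = 0.990 or more. No probe was in the lists of both circRNAs, none of these probes has a host gene name in any source used here, and with so few arrays and so many probes the highest correlations are high by selection.

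Other listed circRNAs come from hosts of related pathways. Magi2 encodes a synaptic scaffold protein and Grin2b an NMDA receptor subunit, both placed in Rap1 signalling, and Dennd1b and Tbc1d5 encode regulators of Rab GTPases. These 4 hosts give 7 circRNAs, which the study's list took from heroin against saline, where they ran from -1.07 to 0.60. In sucrose against naive, 1 of the 7 was past a fold of 1.5 at an unadjusted p below 0.05 with sucrose higher, where 2.74% of all circRNAs were, and 0 were past it with sucrose lower, where 2.03% were. Of the 7, 0 passed the adjusted threshold. The median difference was 0.06 against -0.01 over all circRNAs, with 4 of 7 above 0. The 1 past the unadjusted threshold was the Grin2b circRNA rno_circRNA_011734, at 1.02 in sucrose minus naive (SE 0.25, limma adjusted p = 0.323) and at -1.07 in heroin minus saline, the contrast that listed it. A second Grin2b circRNA, rno_circRNA_011733, differed by 0.51 (SE 0.20, limma adjusted p = 0.397), and the third, rno_circRNA_011731, by 0.06. The 2 Magi2 circRNAs, like circAdcy5 and circPrex2 higher in heroin than in saline, stood at 0.10 and -0.03 in sucrose minus naive. The circRNAs of Dennd1b and Tbc1d5 stood at -0.21 and -0.44, and none of these 4 passed the test. With 1 rat left out the Dennd1b value ran from -0.61 (without naive rat 3) to -0.01 (without naive rat 2), and the Tbc1d5 value from -0.68 (without naive rat 3) to -0.19 (without sucrose rat 1). The Nfix circRNA, which names miR-138-5p as circPrex2 does, differed by 0.38 (SE 0.23, limma adjusted p = 0.536).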

How the data were processed

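Cy3 arrays of RNase R-treated orbitofrontal RNA from 12 rats (3 per group) were used, with groups taken from the labels. The authors deposited scanner output of Agilent Feature Extraction 11.0.1.1, with intensity on a linear scale, a background-subtracted intensity and other spot flags per spot. They also deposited a table of log2 values, which matched log2 of the unsubtracted intensity better (r = 0.999 to 1.00) than the subtracted one (r = 0.978 to 0.983), with column medians of 7.02 to 7.03. Its normalization was quantile per the methods, and it was used as an alternative.

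From the scanner files, the background-subtracted intensity of the 14145 circRNA probes was log2-transformed and quantile normalized across the 12 arrays, without 9 spots marked as outliers. Probes well above background on at least 3 arrays were kept. limma 3.58.1 in R 4.3.3 was fitted with 4 group means and Benjamini-Hochberg adjustment over all 13979, and was checked on simulated data. Each array stands for 1 rat, so the p-values rest on variation between arrays, in which rat, hybridisation and scan are not separated. The fit pools this variation over the 4 groups. Precision is limited by there being 3 arrays a group. The text names the 2 circRNAs, the 5 probes most correlated with each over 12 arrays and the 3 over 6, and the listed circRNAs of the related hosts. These circRNAs and lists were chosen with earlier results of these data known. The alternatives were other background corrections and normalizations, the deposited values, other filters, the methods' t-test, the slide or replicate number as a block, an intensity trend, only the groups compared, and each rat left out. The study's PCR data were not analysed here.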

Additional observations from a re-analysis of the deposited data

How the results depend on the processing

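Neither circRNA passed the adjusted threshold in sucrose against naive under any alternative run. The circAdcy5 difference stayed above 0, between 0.0992 (slide as a block) and 0.397 (75th percentile scaling), and between 0.214 and 0.567 with 1 rat left out, with adjusted p from 0.285 to 0.954. The slide block sets sucrose 3 alone against the naive rats. The circPrex2 difference ran from -0.107 (75th percentile scaling) to 0.0120 (slide as a block), where it reversed. With 1 rat left out it ran from -0.248 to 0.127, reversing without sucrose rat 2 (0.127) or naive rat 3 (0.125). The cause was not tested. Heroin minus saline kept its direction, at 0.551 (normexp) to 0.728 for circAdcy5 and 0.583 (normexp) to 0.669 for circPrex2, and 0.550 to 0.866 and 0.539 to 0.848 with 1 rat left out. Saline minus naive of circAdcy5 moved to -0.474 (SE 0.407) with the slide as a block, where only sucrose arrays join the scans. With 1 rat left out it ran from -0.195 to 0.132, and that of circPrex2 from -0.573 to -0.223.

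The related circRNAs past the unadjusted threshold were 1 as reported, 2 without naive rat 1 and 3 without naive rat 3. Only Dennd1b and Tbc1d5, among the 3, had sucrose lower. The count over all circRNAs, 667, became 444 and 1272. The Magi2 circRNA rno_circRNA_011179 reversed to -0.0251 without background subtraction, -0.0244 with normexp, -0.0229 in the deposited values, -0.132 without sucrose rat 1 and -0.0168 without naive rat 2, in a leave-out range of -0.132 to 0.331. That of rno_circRNA_011180 reversed to 0.00871 without background subtraction, 0.00816 with normexp, 0.101 with the slide as a block, 0.197 without sucrose rat 2 and 0.145 without naive rat 3, in a leave-out range of -0.186 to 0.197. Grin2b rno_circRNA_011731 reversed to -0.0331 without sucrose rat 3, in a leave-out range up to 0.154.

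The count of circRNAs past a fold of 1.5 and an unadjusted p below 0.05, in either direction, was 667 in sucrose against naive. It was 319 without background subtraction, 145 with normexp, 285 in the deposited values, 254 by the methods' t-test and 444 to 1327 with 1 rat left out (lowest without naive rat 1, highest without sucrose rat 3). For heroin against saline it was 364, with 147, 68, 127 and 189 in the same order of settings and 293 to 684 with 1 rat left out (684 without heroin rat 3).

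Deviations of same-numbered sucrose and naive arrays correlated at -0.129, -0.0814 and -0.144, but with 3 rats a group these cannot exclude pairing. A replicate block cannot move a difference: each group holds every number. Sucrose minus naive was then 0.375 (SE 0.256, limma adjusted p = 0.621) for circAdcy5 and -0.0845 (adjusted p = 0.925) for circPrex2.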
